A study of Mus musculus with 8 samples.

Results

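The loci of 9 transcription factor genes of the mesenchyme and of fibroblasts were examined in ATAC-seq peak lists of mouse cells in reprogramming. ATAC-seq uses a transposase that cuts accessible DNA, so that a peak marks a stretch of open chromatin. The genes were Prrx1, Prrx2, Osr1, Osr2, Tbx5, Tbx15, Tbx18, Meox2 and Tcf21, 9 of the 21911 protein-coding genes in the annotation. They were chosen by name, and a peak was counted for a gene when it overlapped the gene body or the 50 kb to each side of it, 1302 kb over the 9 windows. These windows held 46 of the 56514 peaks listed in mouse embryonic fibroblasts (MEFs), 31 of 36219 at day 5 of reprogramming, 31 of 35226 at day 10 and 30 of 48486 in embryonic stem cells (ESCs).

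All 8 libraries were Jmjd3 wild type, with 2 libraries in each of the 4 groups. The untreated MEFs and the day 5 and day 10 cells were labelled C57BL/6J-OG2, a strain with a GFP transgene driven by Pou5f1 sequence. The MEFs are a mixed population isolated from mid-gestation embryos. The day 5 and day 10 cells were such MEFs infected with retroviruses for Oct4, Sox2, Klf4 and Myc (OSKM) and with a FLAG control vector, and kept in ESC medium with vitamin C. ESC replicate 1 was labelled C57Bl6J and ESC replicate 2 C57BL/6J-OG2, and the ESCs were untreated. The labels place ESCs on feeder MEFs, whereas the methods of the study give gelatin and 2i/L medium. Only 1 list was deposited per group, named as an intersection and read here as that of its 2 libraries, so no value below has a replicate error and no test between groups was possible. Intervals are 95% Wilson intervals and cover counting error only. In these bulk cultures, a site that closed in every cell and a site still open in few of the cells cannot be told apart, and a peak that is not listed may lie under the limit of the caller.

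The lists were checked at start sites of marker genes. All 7 fibroblast markers (Col1a1, Col1a2, Col3a1, Pdgfra, Pdgfrb, Thy1 and Fap) had a start-site peak in MEFs, 3 at day 5, 4 at day 10, with 2 in ESCs. Of the 6 ESC markers, 3 had one in MEFs, 1 at day 5, 2 at day 10, with 5 in ESCs, with Nanog, Dppa4 and Zfp42 in the ESC list alone. Of 4 endothelial and 2 skeletal muscle markers, 0 had one in any list. Of 3 blood markers, Cd68 alone had one, in ESCs, and of 3 neural markers Pax6 had one in every list. Of 3 epithelial markers, Epcam had one in MEFs and at day 10 and Cdh1 one at day 5 and in ESCs.

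Fibroblasts keep a record of the part of the embryo they came from in the transcription factors they express. Prrx1 and Prrx2 encode paired-related homeodomain proteins of limb and head mesenchyme, Osr1 and Osr2 zinc finger proteins of the odd-skipped family that act in kidney, limb and palate mesenchyme, and Tbx5, Tbx15 and Tbx18 T-box proteins of the forelimb and heart, of skin and skeletal mesenchyme, and of the epicardium and ureter. Meox2 encodes a homeodomain protein of somites and limb muscle precursors, and Tcf21 a basic helix-loop-helix protein of epicardial and visceral mesenchyme. Such genes are often controlled by enhancers spread over long distances, and reprogramming to pluripotency requires that the fibroblast programme be shut down.

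The sequences of 9 sites show the kinds of change described below. Each is given 5′ to 3′ on the plus strand of GRCm38 (mm10), and all but that before the Osr1 start site are the 200 bases around the midpoint of a peak. Capitals mark matches, on either strand, to TGANTCA (AP-1), CATTCC (TEAD), TGTGGT (RUNX), CCNCNCCC (KLF), AGGTGT (T-box), TAATTA (homeobox), CAGCTG (E-box), ATGCAAAT (octamer) or CCNTTGT (SOX). The first 3 are MEF sites that were in no other list and held an AP-1 match, followed by the only peak of Tcf21. The next 2 are sites away from start sites that were in all 4 lists, and one is the stretch before the second start site of Osr1, whose peak was not listed at day 5. The last 2 are day 5 peaks that overlapped a day 10 peak and no MEF peak, of which that of Meox2 lies close to its start-site peak. Among the 13 day 5 peaks with no MEF peak, these 2 alone held a SOX or octamer match, so they are not typical. Osr2 and Tbx15 also had such peaks that overlapped a day 10 peak, not printed here.
Prrx1 intron, MEFs only, chr1:163273157-163273356: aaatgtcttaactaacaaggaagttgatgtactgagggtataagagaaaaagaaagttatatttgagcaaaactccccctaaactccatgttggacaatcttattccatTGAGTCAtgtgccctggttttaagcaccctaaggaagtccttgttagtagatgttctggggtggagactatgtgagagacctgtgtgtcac
Tbx15 downstream, MEFs only, chr3:99372675-99372874: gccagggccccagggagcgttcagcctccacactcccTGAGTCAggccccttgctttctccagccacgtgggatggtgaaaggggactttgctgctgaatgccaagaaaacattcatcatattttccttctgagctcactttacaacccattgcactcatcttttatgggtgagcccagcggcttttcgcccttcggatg
Meox2 upstream, MEFs only, chr12:37072645-37072844: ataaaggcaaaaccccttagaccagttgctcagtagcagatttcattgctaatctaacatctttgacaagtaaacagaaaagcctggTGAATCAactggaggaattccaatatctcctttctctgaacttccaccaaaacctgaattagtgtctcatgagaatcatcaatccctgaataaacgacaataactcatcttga
Tcf21 downstream, MEFs only, chr10:22815929-22816128: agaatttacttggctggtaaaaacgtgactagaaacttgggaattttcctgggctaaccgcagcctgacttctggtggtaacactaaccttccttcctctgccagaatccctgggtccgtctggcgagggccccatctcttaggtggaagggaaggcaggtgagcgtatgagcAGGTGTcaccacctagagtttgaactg
Osr1 downstream, all lists, chr12:9584961-9585160: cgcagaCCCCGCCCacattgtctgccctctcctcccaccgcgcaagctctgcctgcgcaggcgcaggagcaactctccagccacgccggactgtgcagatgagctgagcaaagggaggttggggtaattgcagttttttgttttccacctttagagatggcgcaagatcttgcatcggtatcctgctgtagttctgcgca
Tbx15 upstream, all lists, chr3:99233985-99234184: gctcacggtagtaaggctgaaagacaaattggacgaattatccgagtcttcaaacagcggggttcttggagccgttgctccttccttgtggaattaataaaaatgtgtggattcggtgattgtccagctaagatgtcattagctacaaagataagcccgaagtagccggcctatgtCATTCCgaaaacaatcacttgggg
Osr1 before the second start site, chr12:9574241-9574440: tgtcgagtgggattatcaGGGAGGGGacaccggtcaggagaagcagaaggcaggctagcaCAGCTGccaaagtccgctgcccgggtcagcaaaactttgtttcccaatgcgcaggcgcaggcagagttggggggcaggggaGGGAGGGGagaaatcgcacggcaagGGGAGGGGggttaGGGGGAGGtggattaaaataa
Prrx1 upstream, day 5 and day 10, chr1:163327622-163327821: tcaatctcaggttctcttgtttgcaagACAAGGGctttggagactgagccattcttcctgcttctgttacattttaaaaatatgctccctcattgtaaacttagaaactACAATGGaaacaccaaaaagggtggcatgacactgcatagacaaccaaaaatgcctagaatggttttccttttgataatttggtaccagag
Meox2 upstream, day 5 and day 10, chr12:37106306-37106505: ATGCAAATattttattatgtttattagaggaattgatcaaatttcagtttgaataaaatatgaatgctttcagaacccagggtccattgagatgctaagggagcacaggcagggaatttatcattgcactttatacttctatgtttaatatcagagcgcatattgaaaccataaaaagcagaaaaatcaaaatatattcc

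The number of listed peaks differed widely among the 9 loci. In MEFs the counts ran from 1 at Tcf21 to 12 at both Prrx1 and Prrx2, so that these paralogs held 24 of the 46 peaks. At day 5 the counts ran from 0 at Tbx5 and Tcf21 to 7 at Prrx1. The median member had 3 MEF peaks, 3 day 5 peaks, 3 day 10 peaks and 2 ESC peaks, beside 5, 3, 3 and 4 for the median protein-coding gene. Per 100 kb of window the medians were 2.62, 2.34, 2.34 and 1.17 for the members and 3.46, 2.1, 2.34 and 3.11 for all protein-coding genes. The typical member was thus not dense in MEF peaks, while the 12 peaks each of Prrx1 and Prrx2 came to 7.12 and 8.2 per 100 kb. Fewer peaks at day 5 than in MEFs were listed at 6 of the 9 loci, beside 72.7% of all protein-coding genes with a MEF peak in the window. The other 3 were Osr2, with as many, and Tbx18 and Meox2, with more. Fewer peaks in ESCs than in MEFs were listed at 6 of 9 loci, beside 48.6% of those genes.

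**Figure D1:**
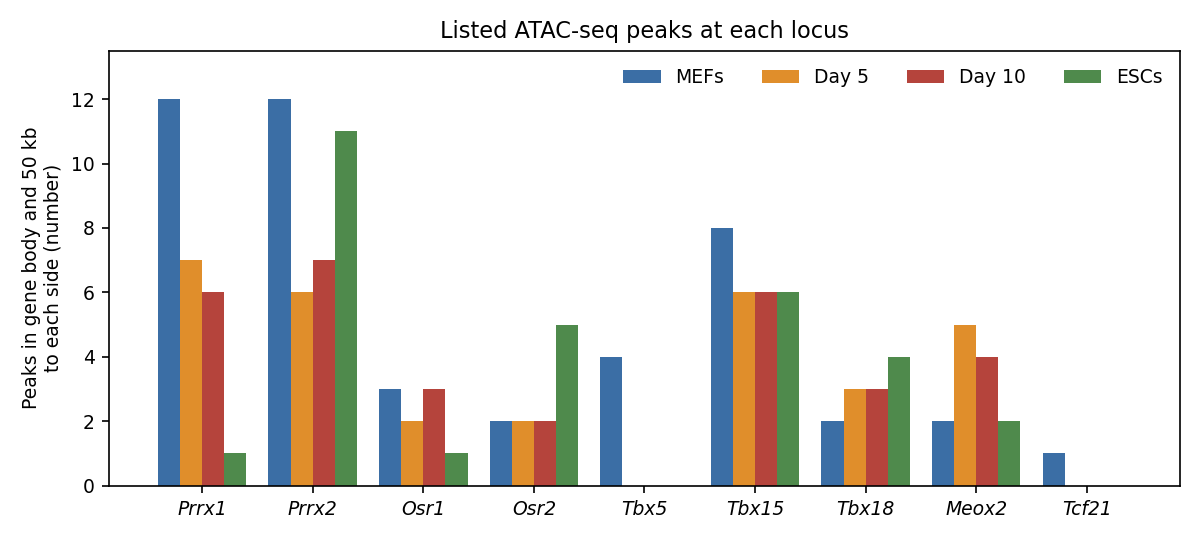
Number of listed ATAC-seq peaks (vertical axis) in the gene body and 50 kb to each side of each gene, with 1 bar per list. Prrx1 fell from 12 peaks in MEFs to 1 in ESCs, Prrx2 from 12 to 11, and Tbx5 and Tcf21 had peaks in MEFs alone.

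A MEF peak was called closed in a later list when no peak of that list overlapped it by at least 1 bp. At day 5, 28 of the 46 MEF peaks were closed (60.9%, interval 46.5% to 73.6%), beside 65.1% of all MEF peaks. At day 10, 26 were closed (56.5%, 42.2% to 69.8%), beside 63.3%, and in ESCs 29 (63.04%, 48.6% to 75.5%), beside 66.7%. All 3 intervals held the share of the whole list, so the loci did not stand apart from other MEF sites in how much was lost. In no other list were 24 MEF peaks (52.2%), beside 54.3% of all MEF peaks. Of the 28 peaks closed at day 5, 3 were listed again at day 10 (10.7%, 3.71% to 27.2%), beside 8.7%. These were the Prrx2 and Osr1 start-site peaks described below and an intronic Prrx1 peak.

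Loss depended on position in these loci as in the whole list. Of the 15 MEF peaks over the start site of any gene, 5 were closed at day 5 (33.3%, 15.2% to 58.3%), beside 16.6% of all such MEF peaks, and of the 31 others 23 (74.2%, 56.8% to 86.3%), beside 81.4%. Of 8 peaks over a start site of the members themselves, 2 were closed at day 5, 0 at day 10, with 2 in ESCs. Of 13 peaks inside a member gene and off start sites, 10 were closed at day 5, 10 at day 10, with 11 in ESCs. Of 18 peaks outside the genes and off start sites, 13 were closed in each of the 3 later lists. The members' own start sites thus held the lowest share of peaks closed at day 5, with few peaks in each class.

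New peaks, listed later and overlapping no MEF peak, were present too. There were 13 at day 5 (41.9% of 31, 26.4% to 59.2%), beside 45.3% of all day 5 peaks, and 11 at day 10 (35.5% of 31, 21.1% to 53.1%), beside 41.1%. In ESCs there were 13 (43.3% of 30, 27.4% to 60.8%), beside 60.9% of all ESC peaks, a share just above the interval. The day 5 peaks lay at 5 loci. Prrx1 had 5, Meox2 4, Tbx15 2, and Osr2 and Tbx18 1 each. When the peaks of all lists within 400 bp were merged, the loci held 71 sites. Of these, 23 were in MEFs alone (32.4%, beside 29.5% of the merged sites of the genome), 15 in all 4 lists (21.1%, beside 13.8%), 14 on either day of reprogramming but absent from MEFs and ESCs (19.7%, beside 16.1%), and 11 in ESCs and not in MEFs (15.5%, beside 28.4%). Of the 8 sites over a member start site, 5 were in all 4 lists and 0 in MEFs alone. The same shares over all start-site sites of the genome were not computed. The Prrx1 site is among the 5 only because the merge joined its MEF peak to an ESC peak 1305 bp inside the gene.

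**Figure D2:**
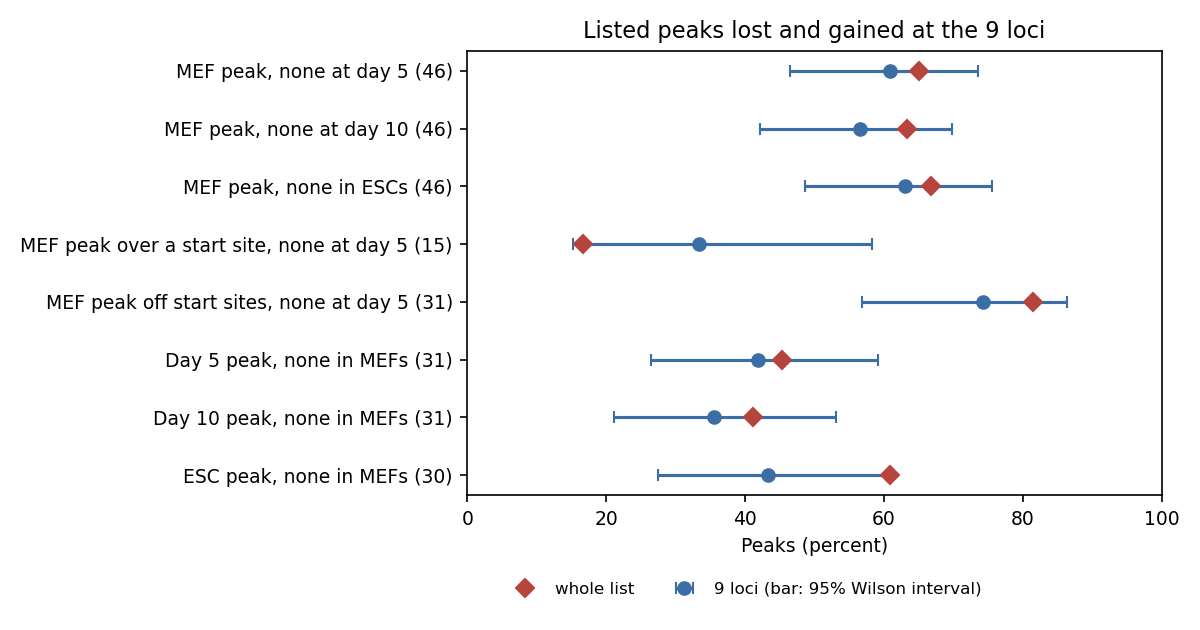
Share of listed peaks lost or gained (horizontal axis, percent), with the number of peaks at the 9 loci in parentheses. Circles are the 9 loci with 95% Wilson intervals and diamonds all peaks of the list. Every diamond but that of ESC peaks absent from MEFs (60.9%, against an upper bound of 60.8%) lies within the interval.

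Peaks over an annotated start site were listed for 7 of the 9 genes in MEFs, beside 59.98% of all protein-coding genes. At day 5 there were 6, beside 52.04%, at day 10 there were 5, beside 55.98%, and in ESCs there were 4, beside 55.8%. Osr2, Tbx15, Tbx18 and Meox2 had one in all 4 lists, and Tbx5 and Tcf21 in none. Of the 7 genes with one in MEFs, 1 had none at day 5 (Prrx2), beside 14.7% of protein-coding genes, and 3 had none in ESCs (Prrx1, Prrx2 and Osr1), beside 12.9%. The interval of the last share, 15.8% to 74.95%, lay above the background, but it rests on 7 genes. It also rests on the Prrx2 peak, which in MEFs covers the start of a retained-intron transcript alone. The Prrx2 ESC peak began 3 bp past that start and overlapped the MEF peak. The MEF start-site peak of Prrx1 also overlapped an ESC peak, which covered no start, so part of this loss is a shift of peak borders. With starts of protein-coding transcripts only, a setting applied to ESCs after the data had been seen, 2 of 6 genes had none in ESCs (9.68% to 70%), beside 13.9%. With start-site peaks counted within 1 kb of the start, the MEF list had 8 such genes and the day 5 list 6. The day 10 list then had 7 and the ESC list 5, so the count did not fall from each list to the next. Prrx1 and Prrx2 were added to the day 10 count by peaks 122 and 344 bp from a start. With this limit Tbx5 joined Prrx2 as a gene that lost its start-site peak by day 5. At that setting 3 of 8 genes had none in ESCs (Osr1, Prrx1 and Tbx5, interval 13.7% to 69.4%), beside 9.52%, again with few genes.

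By fold enrichment, the start-site peaks of the members were weak for start sites. The authors' fold enrichment, a ratio over local background given for each peak, had a median of 2.79 over 8 member start-site peaks in MEFs and of 3.82 over all peaks at protein-coding start sites. At day 5 the medians were 2.56 over 6 peaks and 3.91, at day 10 they were 2.67 over 5 peaks and 3.63, and in ESCs 3.46 over 4 peaks and 3.8. The score, 10 times the −log10 q-value, was under 20 in 3 of the 6 day 5 peaks, namely those of Prrx1 (12), Osr1 (13) and Tbx15 (19). The other 3 had 34 at Meox2, 39 at Osr2 and 46 at Tbx18. The count of 6 therefore fell to 3 when peaks of every list had to reach a −log10 q-value of 2. The share over all genes was not computed at that limit.

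At Prrx1 (chr1:163245119-163313710, minus strand), 10 of 12 MEF peaks were closed at day 5, 9 at day 10, with 11 in ESCs, and 9 were in no other list. Of those 9, the peak of highest score, 91, was at chr1:163208947-163209873, 79351 bp downstream of the nearest start site, with a fold enrichment of 4.5 that put it in the top 13.01% of MEF peaks. Another, at chr1:163252332-163253249, had a score of 69 and covered an exon and an intron near the end of the gene. The closed peaks were spread over the introns, the downstream side and 2 places upstream, at 5968 and 23952 bp. Those at chr1:163273066-163273446 and chr1:163274777-163275235 shared their peak name and score of 30, so they are pieces of the same MEF peak. An intronic MEF peak counted as closed at day 5 lay only 89 bp from a day 5 peak, and a day 10 peak overlapped it.

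The borders of the weak Prrx1 start-site peak differed between lists. It covered chr1:163312115-163314507 in MEFs, with a fold of 2.18, and chr1:163313439-163314744 at day 5, with a fold of 2.04. At day 10 it lay at chr1:163313832-163314736, 122 bp upstream of the first start site. The ESC list had 1 peak in the whole window, at chr1:163311940-163312363, 1305 bp inside the gene from the nearest start site. It overlapped the 3′ part of the MEF peak and neither the day 5 nor the day 10 peak.

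Prrx1 also had the highest-ranking new peak of the 9 loci at day 5, at chr1:163327484-163327959, 13774 bp upstream. Its score was 66 and its fold 4.88, in the top 12.2% of day 5 peaks. It was listed at day 10, with a fold of 3.82, and not in ESCs. A new intronic peak, at chr1:163298973-163299427 at day 5, was also listed at day 10. New day 5 peaks near the start sites lay 2534 bp upstream of the start of a processed transcript and 4895 bp inside the gene. The former is the day 5 peak 89 bp from the intronic MEF peak counted as closed, and a day 10 peak overlapped both. The distal MEF peak at chr1:163361215-163362905, 47505 bp upstream, was listed at day 5 and day 10 and not in ESCs. Prrx1 therefore had MEF sites lost at day 5, a pair of sites held to day 10 and sites present in the infected cells alone, all within 1 window.

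At Prrx2 (chr2:30834972-30881251, plus strand), the paralog with as many MEF peaks, 6 of 12 were closed at day 5, 5 at day 10, with 5 in ESCs. The neighbouring genes took part in these counts. MEF peaks over the start sites of Ntmt1, Asb6 and Ptges were listed in all 4 lists, as were peaks 39907 bp upstream and 39527 bp downstream of a Prrx2 start site. The closed peak of highest score in no other list, 85, covered a start site of 1700001O22Rik, 38277 bp upstream. Its score and peak name were shared with the peak 39907 bp upstream, so the 2 intervals are pieces of the same MEF peak. Of the 2 MEF peaks in the Prrx2 gene itself, that in an intron at chr2:30864327-30865445 was listed at day 5 and day 10 and not in ESCs, and the other was the start-site peak.

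The Prrx2 start-site peak was at chr2:30845398-30846147 in MEFs, with a score of 29, over the start of a retained-intron transcript at position 30845444 and just past the RefSeq start at position 30845367. No day 5 peak lay within 16936 bp of it. It was listed again at day 10, at chr2:30845788-30846012 with a score of 14, and in ESCs at chr2:30845447-30845595 with a score of 22, both just inside the start. The transcript start is what makes it a start-site peak, since no peak covered the start of a protein-coding Prrx2 transcript in any list. All 4 new ESC peaks lay downstream, in or across the neighbouring gene Ptges, and 0 new peaks were listed at day 5 or day 10. Of these ESC peaks, that at chr2:30927091-30927521 shared its name and score with a piece that overlapped a MEF peak. That at chr2:30901796-30902367 lay only 119 bp from a MEF peak.

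At Osr1 (chr12:9570116-9581500, plus strand), each of the 2 annotated start sites had a MEF peak, and the later lists differed between them. The peak at the first start was listed in MEFs (score 24), at day 5 (13) and at day 10 (33), where it began 15 bp past the start, and not in ESCs. The peak at the second start was listed in MEFs (score 48) and at day 10 (24), with no day 5 peak within 3752 bp and no ESC peak within 9741 bp. The stretch printed above ends at that second start and lies mostly before the MEF peak, which began at position 9574414. It held 4 KLF matches and an E-box match. The 200 bp around the midpoint of that MEF peak held 0 of either. The MEF and day 5 peaks over the first start site also covered a start of 1700022H16Rik, and the day 10 peak covered only the latter. Peaks at this first start therefore cannot be assigned to Osr1 alone.

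The third Osr1 peak, at chr12:9584659-9585462 and 10218 bp past the nearest start site, was in all 4 lists. Its fold enrichment was 3.44 in MEFs, 4.95 at day 5, 4.03 at day 10, with 2.44 in ESCs. By fold it stood in the top 45.03% of MEF peaks, 10.9% of day 5 peaks, 19.6% of day 10 peaks and 98.6% of ESC peaks. A distal site at this locus thus ranked higher among peaks of the infected cells than among those of MEFs or ESCs.

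At Osr2 (chr15:35296098-35303305, plus strand), the start-site peak was in all 4 lists, with scores of 82 in MEFs, 39 at day 5, 55 at day 10, with 66 in ESCs. Of its 2 MEF peaks, that at chr15:35276469-35277273, 18825 bp upstream with a score of 30, was in no other list. A site 2540 bp upstream at day 5 was new and was listed in all 3 later lists, with scores of 14, 19 and 48. The ESC list added 3 further peaks upstream at 8642, 22353 and 46080 bp, with folds of 4.57, 4.65 and 4.1, so that Osr2 had 5 peaks in ESCs and 2 in each other list.

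Tbx5 (chr5:119832668-119885219, plus strand) lost every listed peak. Its 4 MEF peaks lay 28515 bp upstream, 999 bp upstream, 268 bp inside the gene and 4048 bp inside the gene from the nearest start site, and 0 peaks were listed in the window at day 5, at day 10 or in ESCs. Around its first start site the stretch with no listed peak was 3.26 kb long in MEFs, 422 kb at day 5, 417 kb at day 10, with 395 kb in ESCs. Of the 13969 protein-coding genes with 4 or more MEF peaks in their window, 24 had none in the other 3 lists (0.172%), and of the 4 members with as many, Tbx5 was 1. The limit of 4 was set after the Tbx5 count was seen, so this share describes Tbx5 and is no test. The peaks were among the weakest of the MEF list, with scores of 20, 15, 25 and 17 and folds of 2.7, 2.08, 2.32 and 2.3, and 2 of the 4 reached a −log10 q-value of 2.

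Tbx15 (chr3:99240381-99354259, plus strand) kept MEF peaks at its 5′ end and lost those on its 3′ side. The peak over the second start site was in all 4 lists, with scores of 107 in MEFs, 19 at day 5, 37 at day 10, with 55 in ESCs. Peaks 5787 bp upstream and 376 bp inside the gene from the first start site were in all 4 lists too, the former in the neighbouring gene Wars2. A further MEF peak, 9538 bp past the second start, overlapped a day 5 and an ESC peak and lay 137 bp from a day 10 peak. The 4 MEF peaks further along, at 3 places in introns and 75983 bp past the last start site, were in no other list. That of highest score, 51, was at chr3:99372493-99373055. New peaks lay at 2 places at day 5, 28886 bp upstream and in an intron between lost MEF peaks. At day 10 there were 3 new peaks. They lay at chr3:99289567-99290531 and chr3:99294011-99294334, both between lost MEF peaks, and at the place 137 bp from a MEF peak. In ESCs new peaks lay at 2 places, in an intron and 43695 bp upstream, the latter with a fold of 4.82.

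At Tbx18 (chr9:87702800-87731260, minus strand), both MEF peaks were in all 4 lists. The start-site peak was wide, 2058 bp in MEFs, 1990 bp at day 5, 1687 bp at day 10, with 2009 bp in ESCs, with scores of 85, 46, 71 and 68. The other, 7992 bp upstream over a start site of Gm37374, had scores of 37, 16, 39 and 73. Single new peaks downstream of the gene were listed at day 5 and at day 10, at different places. ESCs had new peaks in an intron and 24236 bp upstream, the latter with a fold of 5.37, in the top 3.57% of ESC peaks.

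Meox2 (chr12:37108540-37179534, plus strand) had more peaks at day 5 than in MEFs, 5 against 2. Its start-site peak was in all 4 lists, with scores of 78 in MEFs, 34 at day 5, 31 at day 10, with 34 in ESCs. The other MEF peak, 35360 bp upstream with a score of 41, was in no other list. The 4 new day 5 peaks lay 1795 bp upstream and in introns 14697, 30736 and 66679 bp past the start. Of these, 3 overlapped a day 10 peak and 0 an ESC peak. At day 10 the upstream peak and the start-site peak were listed as a single interval of 3086 bp. The sequence of the upstream day 5 peak printed above held the octamer.

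Tcf21 (chr10:22817281-22820174, minus strand) had a single MEF peak, at chr10:22815696-22816361, with a score of 28. It lay past the 3′ end of the gene, 3798 bp from a Tcf21 start site, and covered a start site of Gm10824. No later list had a peak within 83777 bp of it. Tcf21 and Tbx5 were the members with neither a start-site peak in any list nor a listed peak outside MEFs.

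**Figure D3:**
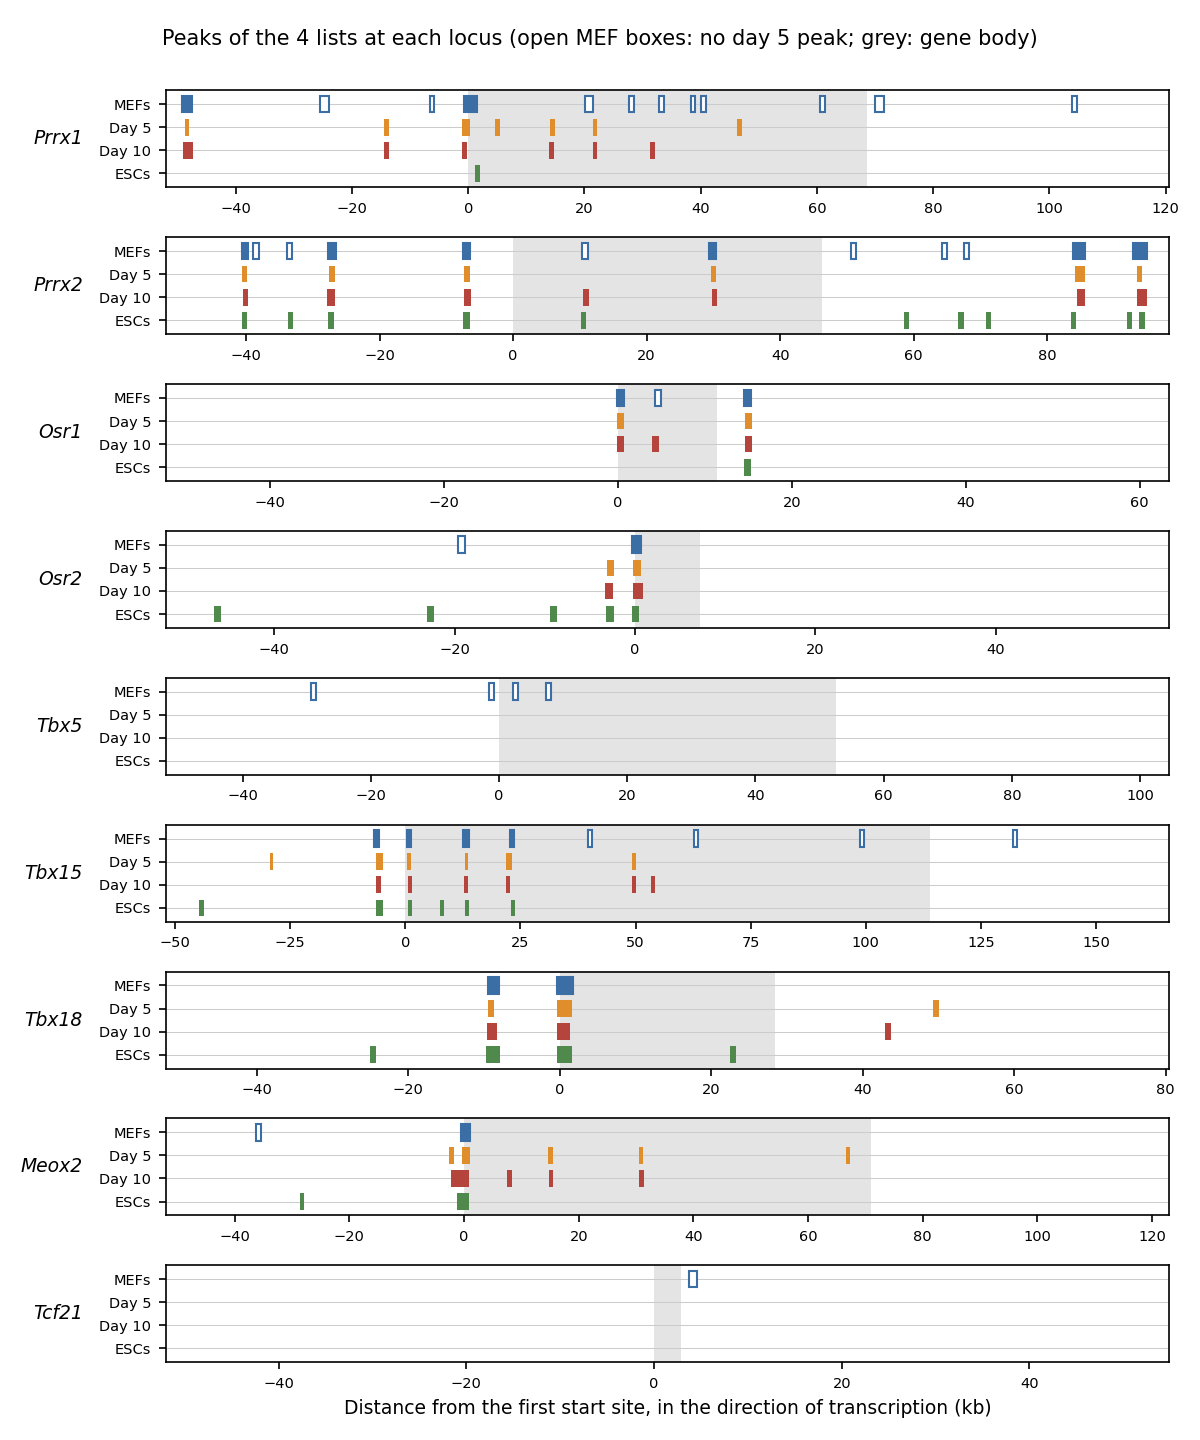
Position of every listed peak at the 9 loci as distance from the first start site in the direction of transcription (horizontal axis, kb), with 1 row per list; peaks under 0.8 kb are drawn 0.8 kb wide. Open boxes in the MEF row have no day 5 peak and grey bands are gene bodies. Open boxes lie along most of Prrx1 and along the 3′ part of Tbx15, while the start sites of Osr2, Tbx15, Tbx18 and Meox2 carry a peak in every row.

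Closed MEF peaks were weaker and narrower than kept ones, at these loci as in the whole list. The 28 peaks closed at day 5 had a median score of 30, a median fold of 2.82 (2.08 to 4.5) and a median width of 598 bp. The 18 kept peaks had 65.5, 3.25 (2.18 to 4.78) and 1104 bp. Over all MEF peaks, the closed had a median score of 35 and width of 579 bp, and the kept 92 and 1053 bp. The part of peak strength in the loss was not tested. Peaks of high score were closed too, with 91 and 69 at Prrx1.

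**Figure D4:**
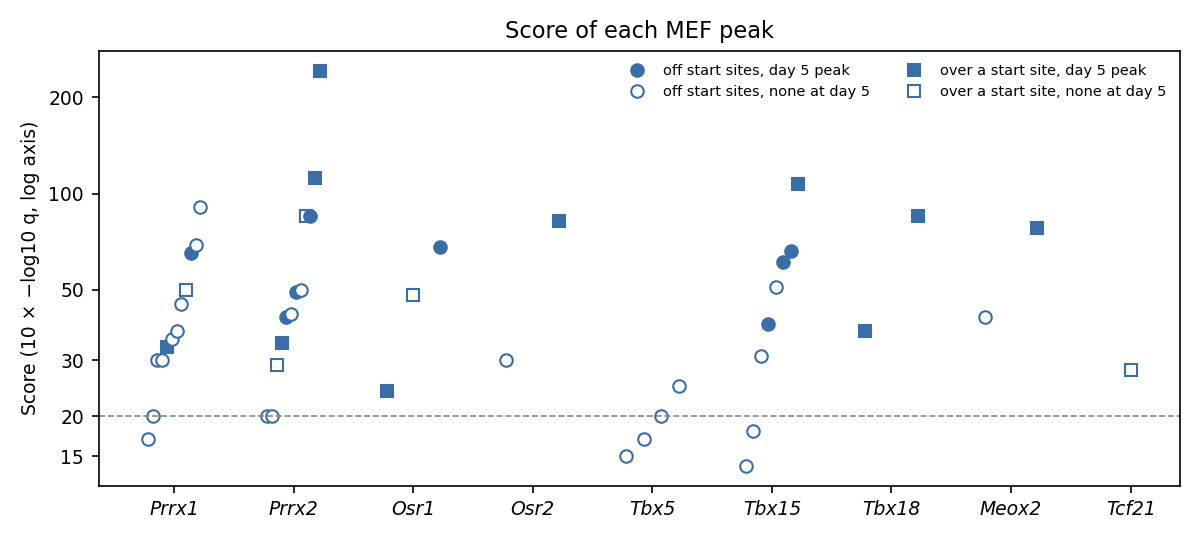
Score (10 times the −log10 q-value, log axis) of each of the 46 MEF peaks by locus, with open symbols for peaks with no day 5 peak and squares for peaks over any start site; the dashed line marks a score of 20. The 28 open symbols have a median of 30 and the 18 filled ones of 65.5, and the symbols overlap at Prrx1 and Prrx2.

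Short motif letters were counted in the 200 bp around the midpoint of each MEF peak. AP-1, bound by FOS and JUN proteins that are abundant in cultured fibroblasts, matched in 5 of 46 peaks (10.9%, 4.73% to 23.04%), beside 21.8% of all MEF peaks. All 5 were among the 28 peaks closed at day 5, and 0 of the 18 kept peaks matched, while in the whole list 28.1% of closed and 10.1% of kept peaks did. Over whole peaks this order was not seen at the loci, where AP-1 letters matched in 10 of 28 closed (35.7%) and 7 of 18 kept peaks (38.9%), beside 53.9% and 33.3% in the whole list. The 5 peaks with a match within the 200 bp lay at Prrx1 (2 peaks), in the window of Prrx2, at Tbx15 and at Meox2. Those without annotated UTR and in no other list are printed above. KLF letters showed the other order, in 3 of 28 closed and 5 of 18 kept peaks, beside 17.2% and 40.9% in the whole list. Matches were found in 4 of 46 peaks for TEAD (15.4% of all MEF peaks), 7 for RUNX (15.8%), 5 for T-box (6.77%), 3 for the E-box (11.7%) and 0 for the homeobox letters (3.88%). Over whole peaks the T-box letters matched in 18 of 46 (39.1%), beside 27.2% of all MEF peaks. Kept peaks were richer in G and C, with a mean of 55.03% against 48.3% in closed peaks, which moves with the KLF counts, and its part in them was not tested.

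In the 13 new day 5 peaks, the octamer bound by OCT4 matched in 1 (Meox2), beside 4.11% of all 16416 new day 5 peaks, and the SOX letters in 1 (Prrx1, with 2 matches), beside 20.3%. These letters were added to the search after the peaks had been seen.

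The genes whose 4 counts came nearest to the mean counts of the members (5.11, 3.44, 3.44 and 3.33) were Ado, Akirin2, C8g, Capn7 and Cars, each with 5, 3, 3 and 3 peaks, at a Euclidean distance of 0.72 over the 4 lists. In all, 47 genes were that close, and how many lie as near to other patterns was not counted. In MEFs the mean was above the median member, which had 3 peaks.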

How the data were processed

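ATAC-seq was done on 8 libraries in 4 groups of 2. According to the labels and methods, the authors mapped reads to mm10 with bowtie2 (version 2.2.0 in the submitters' processing notes) and removed reads of low mapping quality, with a threshold that differs between labels and methods. The peak caller is not given in the sources used here. The authors deposited 1 headerless peak list per group with a score, a fold enrichment (ratio), and the −log10 p-value and −log10 q-value of each peak, which belong to a whole replicate 1 peak (the peak names are those of replicate 1) and were ranked within lists only. Read depth is unknown, and a longer list may come from deeper libraries. The deposited lists held 0 columns of other series.

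Here, peaks were counted over GENCODE mouse release 21 genes (any transcript start counted as a start site), overlaps needed 1 bp, and motif letters were read from the GRCm38 sequence with pysam 0.24.0 (Python 3.11.15). The overlap search was tested on simulated intervals. RefSeq start sites were matched for 5 of the 9 members. The genes and lists were chosen with earlier results of these data known. Named sites were, per member, the MEF peak of highest score in no other list, MEF peaks present on both days and day 5 or ESC peaks within 5 kb of a start site. Other Prrx1, Prrx2, Osr2, Tbx15, Tbx18 and Meox2 sites were added after their values were seen. Alternatives changed the window, peak threshold, list size, overlap, start sites and motif span.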

Additional observations from a re-analysis of the deposited data

How the results depend on the processing

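Of 202 values under alternatives, 179 stayed within 1.5 times the count or inside the interval of the value reported, and 23 did not. With 100 kb to each side the loci held 75 peaks in MEFs and 48 in ESCs, 21 of the latter with no MEF peak. With 10 kb they held 16 ESC peaks, 4 with no MEF peak. Of all ESC peaks, 60.9% had no MEF peak. With all lists cut to the 35226 highest-scoring peaks, they held 26 peaks in MEFs and 19 in ESCs, and 42.3% of MEF peaks were closed at day 5, beside 52.5% of the whole list. When an overlap had to cover 50% of both peaks, 73.9% were closed at day 5, beside 75.2%, and 17 day 10 peaks were new. Start-site peaks at day 5 fell to 3 at a −log10 q-value of at least 2. The genes that lost one by day 5 then numbered 4, and the share over all genes was not computed at that limit. Such genes numbered 2 of 8 within 1 kb of a start, beside 12.7% of all protein-coding genes, and 0 with protein-coding transcripts only. Over whole peaks, which are longer, motif matches rose, and the whole-peak share of all MEF peaks follows each in parentheses. Matches were found in 36.96% for AP-1 (46.7%), 30.4% for TEAD (42.8%), 43.5% for RUNX (44.8%) and 58.7% for KLF (54.3%). For T-box the share was 39.1% (27.2%), for homeobox 15.2% (14.4%) and for the E-box 32.6% (36.8%). Leaving out each gene in turn gave 34 to 45 MEF peaks, 24 to 31 at day 5, 24 to 31 at day 10 and 19 to 30 in ESCs (19 without Prrx2). The share closed ran from 52.9% to 64.7% at day 5, 50% to 61.8% at day 10 and 52.9% to 70.6% in ESCs, and new peaks from 8 (without Prrx1) to 13, 8 to 11 and 9 to 13. No paired analysis was possible because each group had 1 list, and libraries could not be left out for the same reason. Depth, strain and culture differ or are unknown between lists, and their part in the counts was not tested.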

Other observations

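A list of 28 related mesoderm and mesenchyme factor genes was treated the same way. Their windows counted 107 MEF peaks, 50 day 5 peaks, 68 day 10 peaks and 95 ESC peaks. Of the MEF peaks, 64.5% (95% Wilson interval 55.1% to 72.9%) were closed at day 5, 54.2% at day 10 and 57.01% in ESCs, beside 65.1%, 63.3% and 66.7% of all MEF peaks. Fewer peaks at day 5 than in MEFs were listed for 23 of the 27 genes with a MEF peak (85.2%, 67.5% to 94.1%), beside 72.7% of all protein-coding genes with one. Of the 28, 4 had as many and 1 had more, Alx1, a homeobox gene of head mesenchyme.

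Start-site peaks were listed for 19 of the 28 genes in MEFs, 11 at day 5, 15 at day 10, with 16 in ESCs. The 8 genes with one in MEFs and none at day 5 were Tbx20, Meox1, Msx2, Shox2, Hand2, Foxf1, Foxf2 and Foxc2, or 42.1% of 19 (23.1% to 63.7%), beside 14.7% of all protein-coding genes. With the limit at 1 kb from the start, they were 10 of 23 (43.5%), beside 12.7%. Of the 8, Tbx20, Shox2, Hand2, Foxf1 and Foxc2 had a start-site peak again at day 10, 5 genes in all, where 47.4% of all genes with such a loss did. In ESCs Foxf2 also had one, while Meox1 and Msx2 had one in MEFs alone. Foxf1, Foxc2 and Foxl1 are neighbours whose windows overlap, so these genes are not independent of each other, and the list was chosen with earlier results of these data known.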
